A study of Mus musculus with 52 samples.

Results

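The heat shock proteins and chaperones followed here are the genes whose symbol begins with Hspa, Hspb, Hspd, Hspe, Hsph, Hsp90, Dnaja, Dnajb, Dnajc or Cct followed by a digit. On this platform 60 genes met the rule, out of 9030 genes with a symbol and 17053 features in all, unnamed probes included. They were read by 96 probes, and probes of the same gene were averaged. By family they were 5 small heat shock proteins, 9 Hsp70 and Hsp110 genes, 2 Hsp90 genes, the 2 genes of the mitochondrial chaperonin, 3 Dnaja, 9 Dnajb and 21 Dnajc genes, and 9 Cct genes. Hspa8 and Hsp90ab1, the main constitutive cytosolic Hsp70 and Hsp90, are not analysed here.

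Expression was compared directly between pairs of 7 mouse embryonic stem (ES) cell lines on 52 two-colour cDNA arrays, 4 arrays for each of 13 pairs. The lines were HM-1 NT, #4 (B6), B6NT, B6PGA, PDCUMNT, ZFCUMNT and the established ES line HM-1. The series description says that lines differ in the origin of the donor nuclei, and that cumulus cells, with different cloning procedures, gave rise to a pair of them; the labels do not spell out NT, PGA, PD or ZF, give no strain beyond the name B6, and name no treatment or age. Each array carried both lines of its pair, 1 in Cy3 and 1 in Cy5, with the dyes exchanged on arrays 3 and 4. Each line stands for 1 line only, and nothing in the labels says that the 4 arrays used separate cultures, so the p-values measure the spread between arrays, which may be technical.

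Each value is a log2 ratio, the line named before "minus" over the line named after it. The dye in the numerator is not stated, and Cy5 over Cy3 was assumed, so that every sign turns at once if the assumption is wrong. Each order of lines given below, with its high and low end, then runs the other way. Only ratios were deposited, so no level can be given for any gene in any line, and the label "ES cell" cannot be checked by the level of a marker. In bulk RNA, fewer cells of a type and less RNA per cell cannot be told apart. Each array had 17620 to 20200 measured probes. On 45 of 52 arrays the turned ratios followed the value predicted from the other 12 comparisons, with a correlation over all features above 0 (median 0.041, from -0.068 to 0.144 over all arrays). The 7 that did not were arrays 3 and 4 of #4 (B6) minus HM-1, array 2 of PDCUMNT minus HM-1, arrays 1, 3 and 4 of ZFCUMNT minus HM-1 NT, and array 3 of ZFCUMNT minus PDCUMNT. The line-fit results and the counts of calls are therefore also given without these arrays. All correlations are weak, so the check says little about any single array.

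Chaperones bind unfolded or partly folded proteins and keep them from aggregating until they fold, are refolded or are degraded. Hsp70 proteins cycle on and off their clients with ATP, J-domain proteins of the Dnaj families deliver clients and start that ATP hydrolysis, and Hsp110 proteins release the ADP; Hsp90 acts later on kinases, receptors and, in the endoplasmic reticulum (ER), secreted proteins. Chaperonins enclose a client in a chamber, in mitochondria (Hspd1 with its lid Hspe1) or in the cytosol (the Cct complex), and small heat shock proteins hold clients without ATP. Many of these genes share heat shock elements, the sites of the factor Hsf1, and ER members are induced in the unfolded protein response; mouse ES cells are known for high chaperone levels.

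A few named chaperones differed between the lines, and whether the set as a whole did was not tested. In a limma fit of the 13 comparisons together, 6 of 754 tests of a member in a comparison passed an adjusted p of 0.05 (Benjamini-Hochberg over all features of a comparison), which is 0.796%, against 1096 of 205999 tests, 0.532%, over all features. These 6 calls came from 3 genes. Hspb1 gave 4 of them, and Hsph1 and Dnaja4 gave 1 each. All 60 members were tested in at least 8 comparisons, 49 of them in all 13. A second fit placed the 7 lines on 1 scale from all 52 arrays, with HM-1 at 0 by definition, and asked with a moderated F whether the lines differed. In it 5 of 57 members passed (8.77%), against 510 of 15507 features (3.29%), and 26.3% of members had an unadjusted p under 0.05, against 15.5% of features. The called members were Hspb1, Hsp90b1, Dnaja1, Hspd1 and Hsph1. Dnajb11, Dnajc16 and Hspa1a were measured on too few arrays for this fit, which asked for at least 40.

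**Figure D1:**
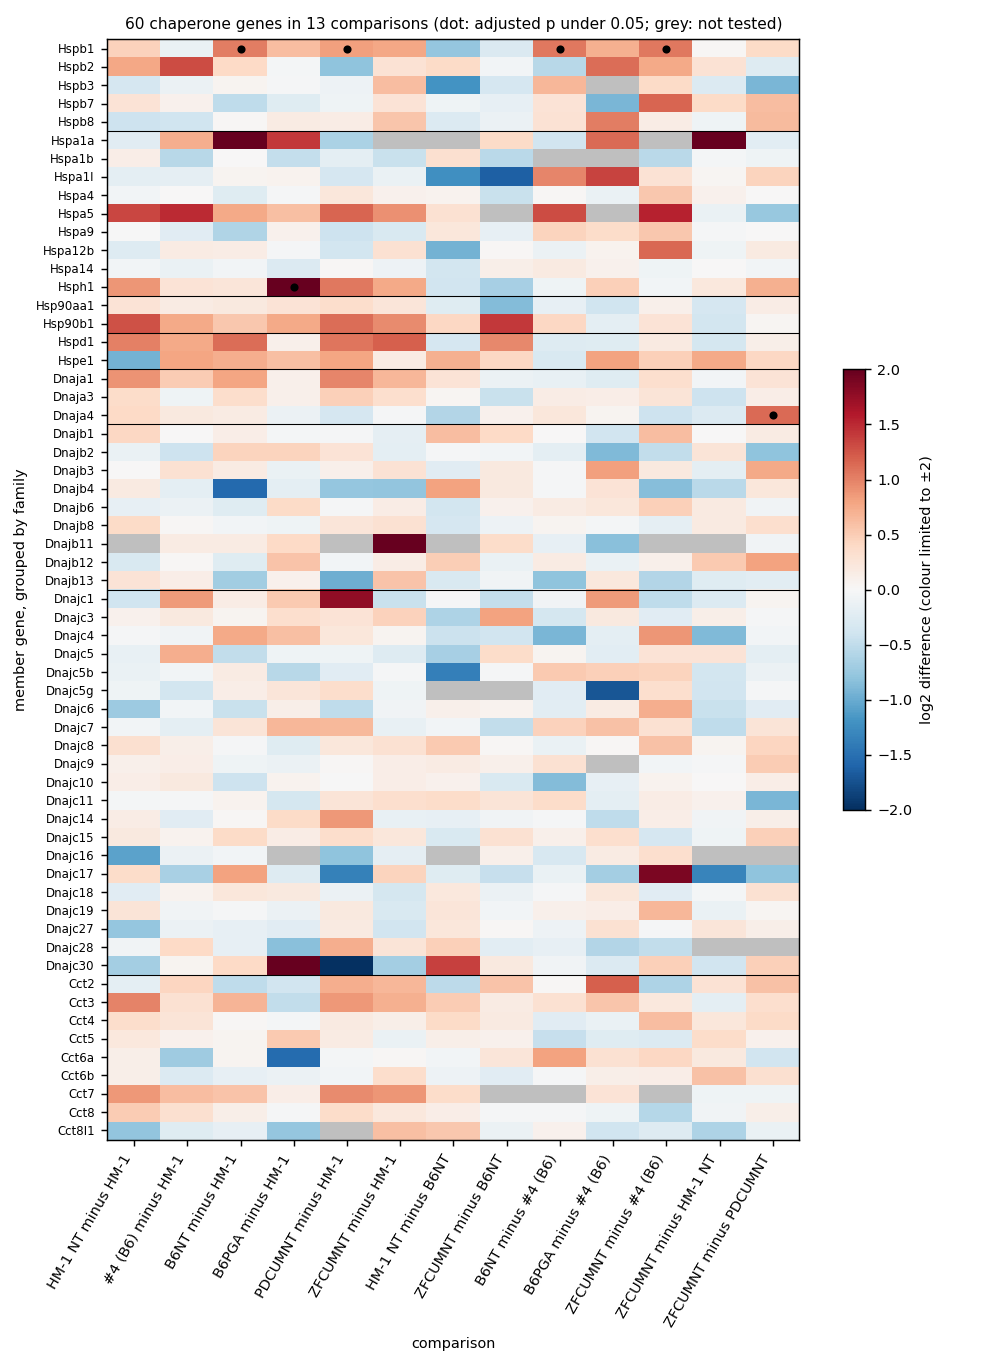
Fitted log2 difference of each of the 60 members (rows, by family) in each of the 13 comparisons (columns); red is positive, blue negative, grey not tested, and dots mark an adjusted p under 0.05. The 6 dots lie on Hspb1 (4), Hsph1 (1) and Dnaja4 (1), and the rest of the map has no column in which the members take 1 sign.

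The heat map shows both signs within every comparison. The member median ran from -0.04 (ZFCUMNT minus HM-1 NT) to 0.21 (ZFCUMNT minus #4 (B6)), while the median over all features ran from -0.08 to 0.11. The largest gap was in PDCUMNT minus HM-1, where the member median was 0.17 and that of all features -0.08, with 34 of 58 members positive. On its 4 arrays the member medians were 0.458, 0.439, -0.156 and -0.023 (SD 0.316), so their sign went with the dye orientation. The medians of all features on these arrays were 0.053, 0.065, -0.174 and -0.142. The member median thus lay above that of all features on each array, by little on array 3. Whether this gap exceeds its spread between arrays was not tested. In the line fit, members were positive against HM-1 more often than not in every line, from 57.9% in #4 (B6) and B6PGA to 71.9% in ZFCUMNT, while 40% to 51.8% of all features were. The 6 shares use the same HM-1 samples and are not independent.

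**Figure D2:**
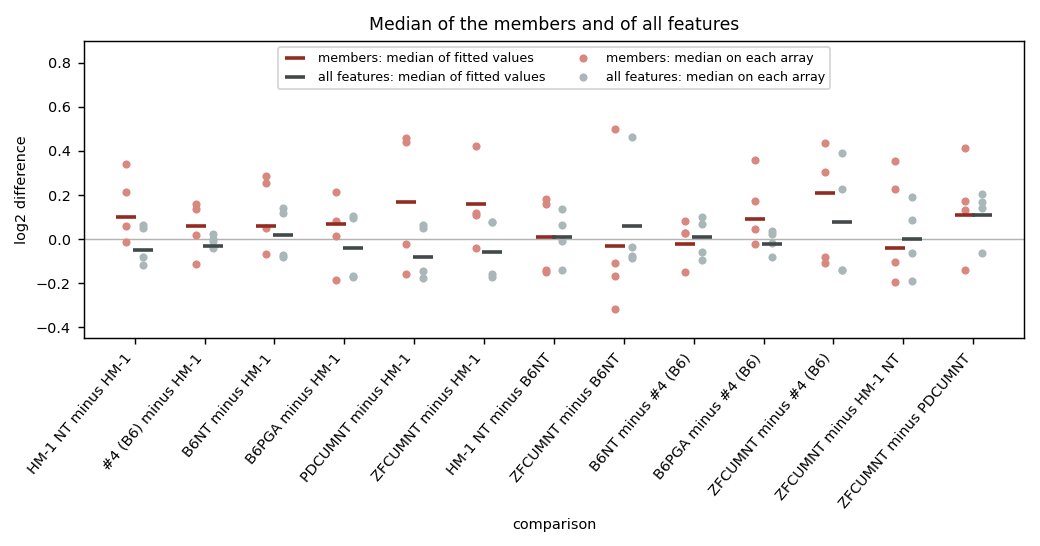
Median log2 difference of the members (red) and of all features (grey) in each comparison; bars are medians of fitted values and points are medians on each of the 4 arrays. The member medians of single arrays spread from -0.315 to 0.498 and cross 0 in every comparison.

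Hspb1, a small heat shock protein that holds unfolding clients and binds actin filaments, gave the clearest separation of the lines. In the line fit its F had an adjusted p of 6.3e-10. HM-1 and #4 (B6) lay together at the low end, #4 (B6) at -0.11 ± 0.13 (SE) from HM-1. The other 5 lines lay above both. B6NT was highest, at 1.10 ± 0.13, then ZFCUMNT at 0.82 ± 0.12, PDCUMNT at 0.63 ± 0.16, B6PGA at 0.60 ± 0.16 and HM-1 NT at 0.52 ± 0.14. Neighbours in this order from HM-1 NT to ZFCUMNT did not pass as pairs (limma adjusted p 0.95, 0.98 and 0.74), nor did ZFCUMNT minus B6NT at -0.28 (adjusted p 0.65) or #4 (B6) minus HM-1 NT at -0.63 (adjusted p 0.12).

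The promoter of Hspb1 is shown because it carries a pair of heat shock elements, in capitals, between the positions -117 and -90 from the gene's start. An element was searched as GAANNTTC or TTCNNGAA on both strands in the 250 bases before each RefSeq start. It was found for 16 of the 51 members with a promoter in the table (31.4%) and for 14.5% of all 27025 genes in it. A match describes the letters of the window and is not evidence of binding. The sequence is RefSeq's, GRCm38.p6, chr5:135887669-135887918, plus strand.
Hspb1: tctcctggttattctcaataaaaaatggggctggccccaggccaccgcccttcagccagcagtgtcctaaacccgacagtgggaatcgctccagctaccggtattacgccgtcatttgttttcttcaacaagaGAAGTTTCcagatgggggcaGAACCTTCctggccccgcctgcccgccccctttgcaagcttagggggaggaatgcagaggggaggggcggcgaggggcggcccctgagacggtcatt

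On single arrays, Hspb1 in B6NT minus HM-1 had 1.264, 1.434, 0.513 and 0.912, a fitted difference of 1.03 ± 0.21 (SE, 4 arrays, limma adjusted p 0.015). All 4 arrays were positive, and 0.17% of all features were called in that comparison. In B6NT minus #4 (B6) the arrays had 1.381, 1.532, 0.644 and 0.691, a difference of 1.06 ± 0.21 (limma adjusted p 0.0067, with 0.245% of features called). Every array again had the same sign. In ZFCUMNT minus #4 (B6) they had 1.649, 1.544, 0.923 and 0.129, a difference of 1.06 ± 0.21 (limma adjusted p 0.006, with 0.935% of features called). In PDCUMNT minus HM-1 they had 1.277, 1.329, 0.303 and 0.36, a difference of 0.82 ± 0.21 (limma adjusted p 0.043, with 1.14% of features called). The first pair of arrays was higher than the second in each of these comparisons.

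The difference between dye orientations was general for this gene. The dye term of Hspb1 was 0.35 on the log2 scale, where the 57 members had a median of 0.09 and a range from -0.55 to 0.52. Without the dye term the 4 calls were lost (limma adjusted p 0.076 to 0.22) with the differences unchanged. In #4 (B6) minus HM-1 arrays 1 and 2 had 0.752 and 0.417 but arrays 3 and 4, with the dyes exchanged, -0.829 and -0.879, so the orientations had opposite signs and the fitted difference was -0.13 ± 0.21. Arrays 3 and 4 of this pair are among the 7 that went against their labels. Without those 7 arrays #4 (B6) stayed at -0.05 ± 0.11 from HM-1 in the line fit, and B6NT at 1.09 ± 0.10, with an adjusted p of 1e-11 for the F.

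**Figure D3:**
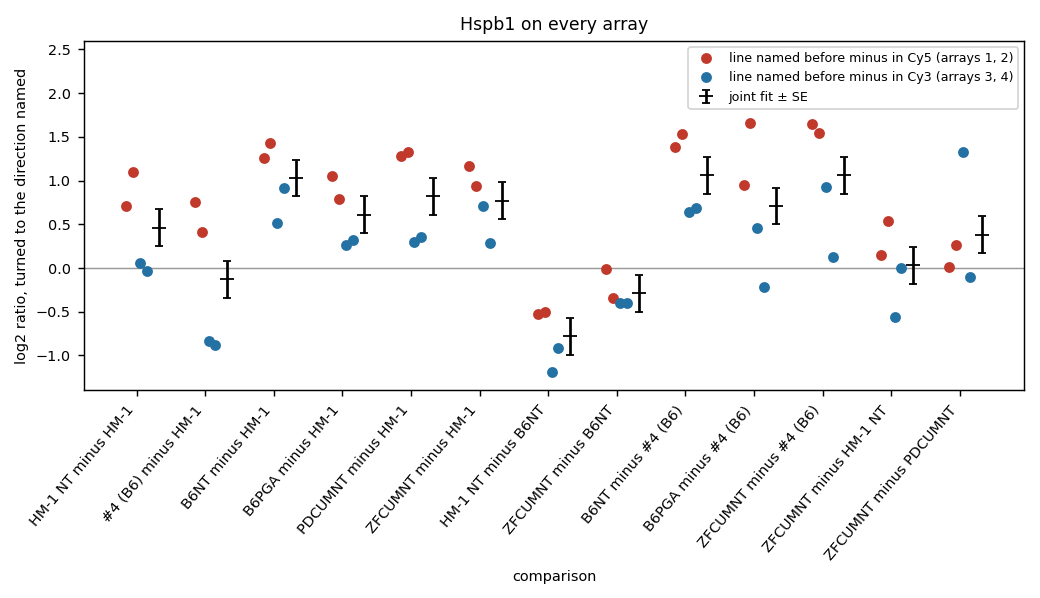
Hspb1 log2 ratio on each of the 52 arrays by comparison; red points have the line named before "minus" in Cy5, blue points in Cy3, and black bars are the fitted difference ± SE. B6NT minus HM-1, B6NT minus #4 (B6), PDCUMNT minus HM-1 and ZFCUMNT minus #4 (B6), which were called, and B6PGA minus HM-1 and ZFCUMNT minus HM-1, which were not, have all 4 points above 0, and red lies above blue in most comparisons.

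Direct and indirect values of Hspb1 mostly had 1 sign. For each comparison the value was predicted from the 48 arrays of the other 12, and the sign was equal in 12 of 13. B6NT minus #4 (B6) was 1.06 measured and 1.33 predicted, HM-1 NT minus B6NT was -0.78 measured and -0.40 predicted, and #4 (B6) minus HM-1 was -0.13 measured and -0.10 predicted. The exception was ZFCUMNT minus PDCUMNT, at 0.38 measured and -0.07 predicted. For Dnaja1 and Hsp90b1 the sign was equal in 10 of 13 comparisons, and for Hspd1 and Hsph1 in 9 of 13. Hsp90b1 in B6NT minus #4 (B6), for instance, was 0.42 measured and -0.42 predicted.

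Among the 21 pairs of lines of the line fit, 8 had a member called, with 16 calls in all. Hspb1 had 6 of these. B6NT minus #4 (B6) was 1.21 (limma adjusted p 3.1e-08), where 0.432% of all features were called, and B6NT minus HM-1 had an adjusted p of 4.7e-08, where 0.922% were. ZFCUMNT minus #4 (B6) was 0.93 (adjusted p 1.7e-05, 0.374% called), and ZFCUMNT minus HM-1 had an adjusted p of 1.3e-05 (1.26% called). B6PGA minus #4 (B6) was 0.72 (adjusted p 0.014, 0.6% called), and PDCUMNT minus HM-1 had an adjusted p of 0.024 (1.86% called). Just outside were B6NT minus HM-1 NT at 0.58 and PDCUMNT minus #4 (B6) at 0.74, with limma adjusted p-values of 0.052 and 0.056. HM-1 NT minus HM-1 and B6PGA minus HM-1 followed, with adjusted p-values of 0.058 and 0.059. No member was called in the pairs other than those 8. Of all features 0.864% were called in #4 (B6) minus HM-1 and 0.00645% to 0.471% in the other 12.

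Markers of other cell types also differed between the lines. Of 15 fibroblast markers in the line fit 9 were called (60%), and of 15 markers of undifferentiated ES cells 8 (53.3%). Of 5 endoderm markers 1 was called (20%), and of 4 trophectoderm markers 1 (25%). Over all features the share was 3.29%. The called endoderm marker, Sparc, is also on the fibroblast list and is counted among its 9. The median of the fibroblast markers against HM-1 was 0.43 in HM-1 NT, 0.43 in #4 (B6), 0.05 in B6NT, 0.75 in B6PGA, 0.18 in PDCUMNT and 0.14 in ZFCUMNT. The median of the ES cell markers was 0.07, -0.37, 0.10, 0.04, 0.04 and -0.11 in the same lines. B6NT, the line highest for Hspb1, had the fibroblast median nearest to that of HM-1, and #4 (B6), level with HM-1 for Hspb1, had the lowest ES marker median. The called ES markers did not share 1 order of lines. Against HM-1, Dppa5a lay at -1.46 in #4 (B6) and 0.64 in B6NT, Zfp42 at -2.58 in #4 (B6) and -2.74 in B6NT, and Dppa3 at 0.87 in #4 (B6) and 1.41 in B6NT. Whether feeder cells or the share of undifferentiated cells had a part in any chaperone difference was not tested.

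The other small heat shock proteins were not called. Hspb8, a partner of Bag3 in clearing misfolded proteins, lay between -0.29 in #4 (B6) and 0.45 in B6PGA against HM-1. Hspb2, Hspb3 and Hspb7, best known from heart and skeletal muscle, lay between -0.63 and 0.68 and had residual SDs of 0.83 to 1.36, where Hspb1 had 0.419.

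Hsp90b1, the Hsp90 of the ER that folds integrins and Toll-like receptors, had the next smallest p-value (F, limma adjusted p 5.9e-04). HM-1 was lowest. HM-1 NT lay 1.26 ± 0.24 above it, ZFCUMNT 1.14 ± 0.20, PDCUMNT 1.11 ± 0.27, #4 (B6) 0.64 ± 0.22, B6PGA 0.62 ± 0.29 and B6NT 0.60 ± 0.22. The first 3 differences were called, with adjusted p-values of 0.0018, 6e-04 and 0.019; 0.78% of all features were called in HM-1 NT minus HM-1. The call was lost (adjusted p 0.24) once a term for a shift common to all arrays was fitted, as described with the plot of line positions.

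The ratio to HM-1 was positive in both dye orientations in most comparisons. Hsp90b1 in HM-1 NT minus HM-1 had 1.521, 1.368, 1.112 and 1.097, and in B6PGA minus HM-1 it had 0.717, 0.65, 0.89 and 0.738. It was positive on 23 of the 24 arrays that carried HM-1, where 49% of all measured values were positive. Among comparisons without HM-1 it varied more, as in B6NT minus #4 (B6), with -1.751, 1.287, 1.629 and 0.528.

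The Hsp90b1 promoter is shown because it held the ER stress element, CCAAT and CCACG separated by any 9 bases, in 2 places, at -212 to -194 and, on the opposite strand, at -107 to -89. Hspa5 held it once, at -65 to -47, and Dnajc3 was the only other member with it, 3 of 51 members (5.88%) against 0.13% of all genes. Both sequences are RefSeq's, GRCm38.p6, with the element in capitals: Hsp90b1 at chr10:86705445-86705694 on the minus strand and Hspa5 at chr2:34771840-34772089 on the plus strand.
Hsp90b1: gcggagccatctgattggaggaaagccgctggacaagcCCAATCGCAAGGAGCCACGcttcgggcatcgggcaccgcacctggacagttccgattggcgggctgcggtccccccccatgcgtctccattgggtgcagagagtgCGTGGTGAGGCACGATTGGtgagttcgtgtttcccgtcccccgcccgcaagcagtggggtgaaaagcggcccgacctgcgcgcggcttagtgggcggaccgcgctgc
Hspa5: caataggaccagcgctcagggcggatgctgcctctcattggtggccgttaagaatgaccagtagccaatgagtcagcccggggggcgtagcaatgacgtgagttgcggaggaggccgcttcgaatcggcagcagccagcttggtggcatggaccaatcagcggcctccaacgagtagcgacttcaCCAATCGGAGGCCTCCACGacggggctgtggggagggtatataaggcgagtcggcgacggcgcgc

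Hspa5, the Hsp70 of the ER and the sensor-bound regulator of the unfolded protein response, had positive values against HM-1 in every line (0.20 to 1.46) and on 22 of 24 arrays with HM-1. It was not called (F, limma adjusted p 0.17), with a residual SD of 1.45 between arrays, against 0.712 for Hsp90b1. In HM-1 NT minus HM-1 its arrays had 0.804, 1.363, 1.43 and 1.706, the highest fitted value of any member in that comparison (1.33 ± 0.72, limma adjusted p 0.87). In ZFCUMNT minus PDCUMNT it had -5.521 on array 2 and 1.481 on array 4. Across 47 arrays Hspa5 and Hsp90b1 correlated at r = 0.30, arrays that share lines. Dnajc3, a J protein of the ER lumen, lay between -0.08 and 0.44 against HM-1 and was not called.

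Other ER folding genes were read from a list of 23, of which 15 had a probe and 14 were in the line fit. Of these 2 were called (14.3%, against 3.29% of all features), both with every line above HM-1. Whether their calls hold with the term common to all arrays was not tested. Pdia4, a disulfide isomerase, lay 0.40 to 0.81 above HM-1 (limma adjusted p 0.00081), highest in ZFCUMNT. Manf, a secreted factor of the unfolded protein response, lay 0.32 to 0.80 above it (limma adjusted p 0.0095), and in PDCUMNT minus HM-1 was called directly at 0.97 ± 0.26 (limma adjusted p 0.046). The list median against HM-1 was between 0.05 and 0.20 in the 6 lines.

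Hspd1, the mitochondrial chaperonin itself, was called in the line fit (F, limma adjusted p 0.015), again with HM-1 lowest. ZFCUMNT lay 1.16 ± 0.24 above HM-1 (limma adjusted p 0.0026), PDCUMNT 1.06 ± 0.32, HM-1 NT 1.0 ± 0.28, #4 (B6) 0.85 ± 0.25, B6NT 0.81 ± 0.26 and B6PGA 0.36 ± 0.32. In ZFCUMNT minus HM-1 its arrays had 1.338, 2.25, 0.633 and 0.522, all positive. In #4 (B6) minus HM-1 they had 1.611, 1.917, -1.098 and 0.616, so that 1 array opposed the other 3. It was positive on 20 of the 24 arrays with HM-1, and its dye term was 0.45. The term common to all arrays ended its call as well (adjusted p 0.18). Its 2 probes had like ranges over the lines, 0.27 to 1.17 and 0.35 to 1.16 above HM-1, but differed in B6NT, at 0.42 and 1.13. The first had a limma adjusted p of 0.57 and the second of 1.1e-05.

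Hspe1, the lid of the same chaperonin, was not called. It lay between -0.22 and 0.85 from HM-1 (F, limma adjusted p 0.81), and over 48 arrays the correlation of Hspd1 and Hspe1 was 0.07. In HM-1 NT minus HM-1 the Hspe1 arrays had -5.047, 0.101, 0.632 and 0.57, where Hspd1 had 1.156, 1.919, 0.899 and 0.057. Array 1 alone sets the sign of the Hspe1 value there. The residual SD of Hspe1 was 1.43, against 0.84 for Hspd1.

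The sequence between the genes is shown because the more downstream of the 2 Hspd1 starts in the table and the Hspe1 start lie 216 bases apart on opposite strands and share 1 upstream region. The window of the other Hspd1 start held no heat shock element, and the stretch shown lies downstream of that start. In it stands a run of heat shock units of 18 bases, in capitals, at -144 to -127 from that more downstream Hspd1 start and -89 to -72 from the Hspe1 start. A site of 3 alternating units was found for 3 of 51 members (5.88%), the third being Dnajb6, and for 0.514% of all genes. Every site of 3 units also holds the shorter one. The same 30 bases, chr1:55088053-55088082 of RefSeq's GRCm38.p6, read on the minus strand for Hspd1 and on the plus strand for Hspe1.
Hspd1: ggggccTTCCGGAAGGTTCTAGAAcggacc
Hspe1: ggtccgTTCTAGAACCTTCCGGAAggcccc

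Of 11 genes listed for mitochondrial folding and proteolysis 7 were in the line fit and 0 were called there, by limma. Oma1, a stress-activated protease of the inner membrane, was called once, at -2.05 ± 0.49 in B6PGA minus #4 (B6) (limma adjusted p 0.018, where 1.22% of features were called). Hspa9, the mitochondrial Hsp70, lay between -0.53 and -0.04 from HM-1 in the 6 lines and was not called (limma adjusted p 0.53). Its probes in the line fit disagreed in B6PGA, at 0.43, 0.55 and -0.95.

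Hsph1, the Hsp110 that acts as nucleotide exchange factor for cytosolic Hsp70, was called in B6PGA minus HM-1 at 2.19 ± 0.51 (limma adjusted p 0.026), where 0.494% of features were called. Its arrays had 0.231 and 0.036 with B6PGA in Cy5 but 4.493 and 3.999 with B6PGA in Cy3. The call therefore came from 1 dye orientation. In B6PGA minus #4 (B6), the other comparison of B6PGA, the arrays had 0.327, -1.016, 1.9 and 0.673. The value predicted for B6PGA minus HM-1 from the other comparisons was 1.09. In the line fit Hsph1 lay 1.74 ± 0.39 above HM-1 in B6PGA (limma adjusted p 0.014, where 0.696% of features were called) and 0.61 to 0.85 above it elsewhere (F, adjusted p 0.045). This call was lost with the term common to all arrays (adjusted p 0.22) and in 31 of 56 settings that left out arrays. Without array 3 of B6PGA minus HM-1 the direct value was 1.53 (adjusted p 0.37), and without array 4 it was 1.70 (adjusted p 0.28).

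The Hsph1 promoter is shown for its heat shock element, in capitals. It stands at -33 to -26 from the more upstream of the RefSeq starts that had a promoter window (GRCm38.p6, chr5:149636337-149636586, minus strand). The gene's RefSeq range reaches further upstream, to base 149636498, so the element lies within that range.
Hsph1: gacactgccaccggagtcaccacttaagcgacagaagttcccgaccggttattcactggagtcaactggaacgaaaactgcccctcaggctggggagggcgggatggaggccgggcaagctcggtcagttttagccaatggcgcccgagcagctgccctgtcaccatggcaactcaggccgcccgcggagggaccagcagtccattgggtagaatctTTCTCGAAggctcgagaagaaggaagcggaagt

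Among the Hsp70 genes proper, Hspa1a and Hspa1b, the near-identical stress-inducible copies, may share signal on a cDNA array. Hspa1a was measured on 39 arrays and had the highest fitted value of any member, 3.08 ± 1.22 in ZFCUMNT minus HM-1 NT (1.252, 2.765 and 5.312 on 3 arrays, limma adjusted p 0.42; 0.292% of features were called there). In B6NT minus HM-1 its 2.50 ± 1.22 rested on 1 array, with -1.087, 8.217 and 0.289. Hspa1b lay between -0.81 in #4 (B6) and 0.06 in B6NT against HM-1 and was not called (F, limma adjusted p 0.25). Hspa1l, a testis form of Hsp70, was the lowest member of ZFCUMNT minus B6NT, with -2.222, -2.554, -0.442 and -1.326 (-1.64 ± 0.46, limma adjusted p 0.22; 0.124% called), all negative. Hspa4 and Hspa14, a cytosolic Hsp110 relative and a ribosome-bound Hsp70, stayed within -0.14 to 0.14 and -0.18 to -0.01 of HM-1. The 3 probes of Hspa4 disagreed, however. One had an adjusted p of 0.011, at 0.69 in PDCUMNT and 0.62 in ZFCUMNT, another ran from -0.50 to -0.31 over the lines with an adjusted p of 0.5, and the last had one of 0.99. Hspa14 had the smallest residual SD of all members, 0.365.

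Hsp90aa1, the inducible cytosolic Hsp90, lay 0.10 to 0.47 above HM-1 as the average of 2 probes (F, limma adjusted p 0.55). The probes had opposite signs in HM-1 NT (0.83 and -0.19), B6PGA (0.27 and -0.08), PDCUMNT (0.57 and -0.26) and ZFCUMNT (0.52 and -0.29). Both were above HM-1 in #4 (B6) and B6NT. The 4 arrays of Hsp90aa1 in B6PGA minus HM-1 were close, at 0.286, 0.24, 0.328 and 0.214. The value of 0.27 ± 0.30 did not pass.

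Dnaja1, the cytosolic J protein that works with Hspa8, was called in the line fit (F, limma adjusted p 0.0021). HM-1 NT lay 0.91 ± 0.18 above HM-1, ZFCUMNT 0.81 ± 0.16, PDCUMNT 0.75 ± 0.21, B6NT 0.69 ± 0.17, #4 (B6) 0.58 ± 0.17 and B6PGA 0.21 ± 0.21. In PDCUMNT minus HM-1 its arrays had 0.664, 0.954, 1.339 and 0.939, and in HM-1 NT minus HM-1 they had 0.734, 0.409, 1.387 and 1.09. B6PGA stood near HM-1, with 0.24, -0.212, 0.665 and -0.296, while all arrays of the other 5 HM-1 comparisons were positive. No single comparison of Dnaja1 was called in the joint fit, the smallest adjusted p being 0.083. Its dye term was 0, and with the common term its F had an adjusted p of 0.11.

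The Dnaja1 promoter is shown for its heat shock element, in capitals, at -124 to -117 from the most upstream RefSeq start (GRCm38.p6, chr4:40722218-40722467, plus strand). The windows of its more downstream starts held no heat shock element.
Dnaja1: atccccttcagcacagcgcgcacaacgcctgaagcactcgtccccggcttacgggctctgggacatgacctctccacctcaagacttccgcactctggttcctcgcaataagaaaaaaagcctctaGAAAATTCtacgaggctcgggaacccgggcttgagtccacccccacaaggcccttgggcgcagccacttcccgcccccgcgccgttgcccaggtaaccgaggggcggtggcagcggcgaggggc

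Dnaja4, a J protein linked to sterol synthesis, was called in ZFCUMNT minus PDCUMNT alone among the 13. Its arrays had 1.126, 1.176, 0.964 and 1.282, the narrowest spread of any call, and a difference of 1.14 ± 0.28 (limma adjusted p 0.045), where 0.763% of features were called. These are the lines whose names share CUMNT. In the line fit PDCUMNT lay at -0.68 ± 0.22 and ZFCUMNT at 0.12 ± 0.16 from HM-1 (F, limma adjusted p 0.18). Its 2 probes placed PDCUMNT at -0.92 and -0.40. Without each of the 4 arrays of that pair the adjusted p was 0.059 to 0.080, and without the 7 arrays against their labels 0.082.

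The remaining Dnajb and Dnajc members were not called in any comparison or in the line fit by limma. Dnajb1, the classic partner of inducible Hsp70, lay between -0.25 and 0.40 from HM-1, and Dnajb6, which suppresses aggregation of polyglutamine proteins, between -0.21 and 0.23. Dnajb4 was the nearest to the threshold (F, adjusted p 0.074), at -0.97 ± 0.27 in B6NT, -0.92 ± 0.34 in PDCUMNT and -0.82 ± 0.25 in ZFCUMNT. Its 2 probes disagreed. The one measured on 40 arrays ran down to -2.87 in PDCUMNT with an adjusted p of 0.014, and the one measured on 50 arrays was at -0.13 there with an adjusted p of 0.11. Dnajc5, the cysteine string protein of secretory vesicles, lay between -0.38 and 0.11.

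Several large values of this family came from 1 or 2 of the 4 arrays. Dnajc1 in PDCUMNT minus HM-1 had 0.073, 0.275, -0.038 and 6.774. Dnajc30 had -8.102, -2.39, 0.059 and 0.126 in PDCUMNT minus HM-1 and -0.262, -0.253, 6.791 and 1.97 in B6PGA minus HM-1. None of these passed the test (limma adjusted p 0.093, 0.13 and 0.48).

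Other members that were highest or lowest in a comparison showed the same unevenness between arrays. Dnajb11, a J protein of the ER lumen, was highest in ZFCUMNT minus HM-1, with 0.859, 3.639 and 4.115 on 3 arrays (2.56 ± 0.97, limma adjusted p 0.69). Dnajc17 was highest in ZFCUMNT minus #4 (B6), with 0.221 and 0.079 on arrays 1 and 2 but 3.333 and 3.891 on the dye-exchanged arrays (limma adjusted p 0.22). Dnajc11, a mitochondrial J protein, was lowest in ZFCUMNT minus PDCUMNT, and all 4 arrays were negative, at -1.429, -0.257, -1.979 and -0.027 (limma adjusted p 0.11). Dnajc16 at -1.07 in HM-1 NT minus HM-1, Dnajc5b at -1.36 in HM-1 NT minus B6NT, Dnajc4 at -0.91 in B6NT minus #4 (B6) and Dnajc5g at -1.71 in B6PGA minus #4 (B6) each had arrays of both signs.

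**Figure D4:**
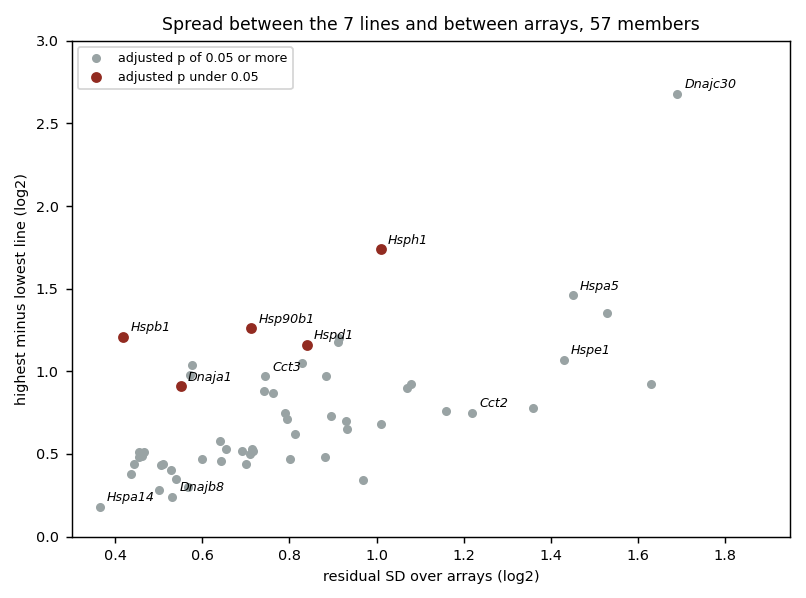
Difference between the highest and lowest line in the line fit (vertical) against the residual SD between arrays (horizontal), both log2, for 57 members; red points have an adjusted p under 0.05. Hspb1 has a spread of 1.21 between lines with a residual SD of 0.419, while Dnajc30 has the widest spread, 2.68, with the largest residual SD, 1.69.

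The plot of line spread against array spread shows that wide and narrow line spreads both occurred among members that were not called. Dnajc30 had the widest, 2.68, and was not called, while Hsph1 followed with 1.74 and was. Residual SDs of the members ran from 0.365 to 1.69 with a median of 0.742, against 0.851 over all features. Hspb1 combined a spread of 1.21 with a residual SD of 0.419.

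Subunits of the cytosolic chaperonin, which folds actin and tubulin, were not called by the F. Cct3 came closest with Cct7 (limma adjusted p 0.11 and 0.092). Cct3 in HM-1 NT minus HM-1 had 0.995, 0.936, 0.777 and 1.251, and its difference of 0.97 ± 0.25 passed as a single contrast of the line fit (adjusted p 0.041). In B6PGA minus HM-1 all 4 Cct3 arrays were negative, at -0.252, -0.092, -0.701 and -0.929. Cct7 was positive on 23 of 24 arrays with HM-1, at 0.43 to 0.88 in the 6 lines. Cct2, Cct4, Cct5 and Cct8 lay between -0.29 and 0.45 and the family median was 0.02 to 0.17. Cct6a was lowest of all members in B6PGA minus HM-1, with -4.273, -2.329, 0.014 and 0.424 (-1.54 ± 0.47, limma adjusted p 0.18), so the sign of its arrays went with the dye orientation.

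Correlations among the Cct genes centred near 0 on these arrays. The 36 pairs, grouped by symbol with Cct6b and Cct8l1 included, had a median of 0.02 over 52 arrays (from -0.29 to 0.58). All 1770 member pairs had a median of 0.03. The pair of Cct3 and Cct8 had 0.58, and the highest of all pairs was Dnaja3, a mitochondrial J protein, with Hsp90aa1, at 0.62. Hsp90b1 and Hspd1 had 0.49, and Hspb1 with Hsp90b1 had 0.08. The arrays share lines, so these values are descriptions.

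Cytosolic cochaperones gave 1 called gene of 19 in the line fit (5.26%, near the 3.29% of all features), from a list of 33 of which 21 had a probe. It was Vbp1, a prefoldin subunit that hands actin and tubulin to the Cct complex, at 0.87 ± 0.20 in B6NT and 0.03 ± 0.20 in #4 (B6) against HM-1 (F, limma adjusted p 0.027). The 4 Hsf genes had no probe here.

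**Figure D5:**
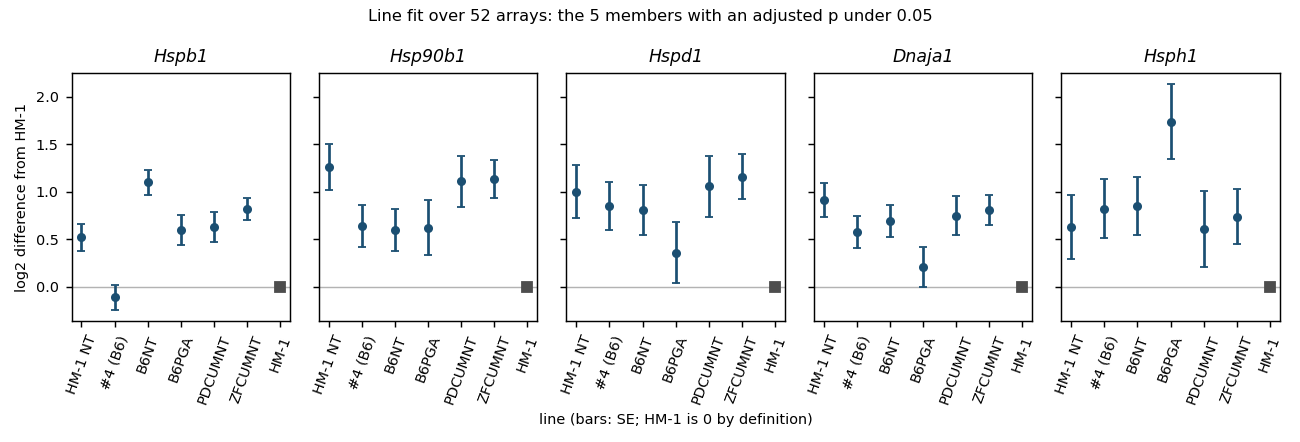
Position of each line relative to HM-1 (log2, line fit over 52 arrays, bars SE) for the 5 members with an adjusted p under 0.05; HM-1 is 0 by definition and drawn as a square at the right. Hspb1 has #4 (B6) at -0.11 beside HM-1, whereas Hsp90b1, Hspd1, Dnaja1 and Hsph1 have all 6 lines above HM-1.

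The plot of line positions shows that Hsp90b1, Hspd1, Dnaja1 and Hsph1 shared HM-1 as the lowest line, and that Hspb1 differed in placing #4 (B6) beside it. HM-1 was the line named after "minus" in all 6 of its comparisons, so any shift common to all arrays would look like a low HM-1. With 1 further term for such a shift, 0 of 15507 features were called for the term by limma (707 at an unadjusted p under 0.05), but Hsp90b1, Hspd1, Dnaja1 and Hsph1 lost their call (limma adjusted p 0.24, 0.18, 0.11 and 0.22). Hspb1 kept it (adjusted p 1.1e-06). The term overlaps with the position of HM-1, and calls over all features fell from 510 to 319 with it. A lost call therefore cannot tell a common shift from lower precision. Without the 7 arrays against their labels Hsp90b1, Hspd1, Dnaja1 and Hsph1 were still called by the F (limma adjusted p 0.0016, 0.011, 0.0058 and 0.026). These arrays were picked after seeing the data, for going against the other comparisons. Leaving them out favours calls, which rose from 510 to 692 over all features. As single pairs, Dnaja1 in PDCUMNT minus HM-1 then lost its call (0.81, adjusted p 0.082) and Hspd1 in #4 (B6) minus HM-1 gained one (1.04, adjusted p 0.048). With all HM-1 arrays left out, Hspb1 was likewise the 1 member still called.

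In #4 (B6) minus HM-1, 0 of 60 members were called in the joint fit (3 at an unadjusted p under 0.05, as were 3.91% of all features), where 0.219% of features were called, and 0 of 57 in the line fit, where 0.864% were. ZFCUMNT minus HM-1 had no member called in the joint fit (0.101% of features), nor had HM-1 NT minus HM-1 (0.254%) or HM-1 NT minus B6NT (1.04%); at an unadjusted p under 0.05 they had 6 of 59, 8 of 59 and 6 of 56 members, where 4.82%, 6.41% and 9.87% of all features had one. ZFCUMNT minus B6NT, B6PGA minus #4 (B6) and ZFCUMNT minus HM-1 NT likewise had none by limma, with 5 of 57, 7 of 56 and 2 of 57 members at an unadjusted p under 0.05, where 5.21%, 10.2% and 8.71% of all features had one.

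HM-1 NT minus HM-1 and B6NT minus #4 (B6) both compare a line with NT in its name with one that shares the rest of its name or its B6. The difference between these differences was tested directly in the joint fit. No member of 57 passed (lowest limma adjusted p 0.6, 3 at an unadjusted p under 0.05), and 30 of 15059 features did, 0.199%. For Hspb1 the values were 0.46 ± 0.21 and 1.06 ± 0.21.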

How the data were processed

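Log2 ratios of 20794 probes on 52 arrays were used as the authors deposited them. The labels' protocols give 20 microgram of total RNA per labelling; their text also speaks of organs and a pooled reference, and the channel labels were followed instead. Scanner, background correction, normalization and the numerator dye are not given in the sources used here. After 1 shift per array, low linear ratios were whole thousandths (tolerance 0.06) on 47 arrays, which shows a base of 2; on 5 arrays they were not. The constant top value of each array was taken as not measured.

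Probes were named by the platform annotation and averaged per symbol, and ratios were turned by the dye labels. Limma 3.58.1 in R 4.3.3 fitted the 13 comparisons jointly, with a dye term, where 3 of 4 arrays in both orientations measured a feature, and the 7 lines in a second fit (40 of 52 arrays). P-values were Benjamini-Hochberg adjusted over all features at 0.05. Both fits were tested on simulated data. The number of arrays limits the precision.

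Named genes are members called in either fit, a list of well-studied members, the highest and lowest member of a comparison, and called list genes. Members and lists were chosen with earlier results of these data known. Alternatives left out arrays or lines and changed scaling, dye term, weights, filter, probe averaging, top values and turning.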

Additional observations from a re-analysis of the deposited data

Results flagged for a closer look

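In 88 groups of 4 arrays examined, for the members' median and for the called members, 4 held an array whose gap to the nearest other array, as a share of the whole range, was above Dixon's 95% critical value; chance flags about 1 group in 20. Dnaja1 in #4 (B6) minus HM-1 had 1.139 on array 4, where the others had 0.272, 0.294 and 0.353; that array is 1 of the 7 against their labels. Hspb1 in ZFCUMNT minus B6NT had -0.012 on array 1, where the others had -0.398, -0.398 and -0.344. That array is 1 of the 5 whose ratios were not whole thousandths. Dnaja4 in ZFCUMNT minus B6NT had -0.315 on array 3, where the others had 0.155, 0.224 and 0.236. Hsp90b1 in ZFCUMNT minus PDCUMNT had -0.46 on array 2, where the others had 0.156, 0.222 and 0.229. None of these 4 values belongs to a called comparison.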

How the results depend on the processing

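The members' medians moved by less than the SD of the 4 array medians under every alternative run. That SD includes the difference between dye orientations, so it is a wide yardstick, and some medians changed sign. ZFCUMNT minus B6NT ran from -0.17 to 0.19, with -0.03 in the main fit and an SD of 0.358. ZFCUMNT minus HM-1 NT ran from -0.07 to 0.19, with -0.04 in the main fit. The calls depended more on the setting. Against 6 calls of members and 1096 of all features in the joint fit, equal scaling of arrays gave 11 and 1662, array weights 17 and 1946, no dye term 0 and 597, each comparison fitted alone 0 and 0, and ratios not turned by the labels 19 and 4511. Without the 7 arrays against their labels, chosen after seeing the data, they were 8 and 2145, and in the line fit 5 members, the same ones, and 692 features. Leaving out arrays gave 0 to 8 and 504 to 1338, with 0 members called without replicate 1, 2 without replicate 2, 2 without replicate 3 and 1 without replicate 4. Against 5 members and 510 features in the line fit, scaling gave 10 members, no dye term 3, array weights 9 and 867 features, and unturned ratios 12 and 2879, none of the 12 being among the 5. Leaving out HM-1 gave 1 member and 67 features, HM-1 NT 3 members, PDCUMNT 3 members and B6NT 192 features. The term common to all arrays, also added after seeing the data, gave 1 and 319. Leaving out arrays gave 1 to 7 members and 180 to 571 features, the 1 (Hspb1) without replicate 4. Without the 5 arrays of other processing the same 5 members were called.

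With unturned ratios the difference between lines cancels over the 2 dye orientations of a comparison. The fitted values and calls of that setting therefore describe the dyes and not the lines. In it Hsph1 had -2.06 in B6PGA minus HM-1 and -1.54 in the line fit, and Dnaja1 had -0.12. Hspb1 had 0.35 (limma adjusted p 0.16), the size of its dye term. The line-fit call of Hspb1 held in all 56 settings that left out arrays (B6NT minus HM-1 1.06 to 1.14). That of Hsph1 was lost in 31 of them. The 4 direct calls of Hspb1 were lost in 3 to 8 of these. With the replicate number as a replicate block in place of the dye term, 4 members were called in the line fit. Hsph1 was lost at 0.05. Same-numbered arrays of different comparisons did not deviate together (median r -0.033, against -0.031 for other numbers). Many of these comparisons have no line in common, so this cannot tell whether the numbers pair the samples.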

Other observations

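The features whose turned ratios followed Hspb1 most closely over 52 arrays were Dppa5a (r = 0.71), an RNA-binding protein of undifferentiated ES cells, Tsr2 (0.65), Rpl39 (0.63), Ebi3 (0.62) and Rab9 (0.61), where the median over all features was 0. Those of Dnaja1 were Brix1 (0.73), Psma2 (0.66) and Cox7a2 (0.66), which serve ribosome assembly, the proteasome and respiration. For Hspd1 they were Hat1 (0.61) and Arpc4 (0.59). The arrays share lines and the genes were picked as the highest of all features, so these are descriptions only.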
